A study of Rattus norvegicus with 7 samples.

Results

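SREBP1 binding in rat sciatic nerve was mapped by ChIP-seq, and 13082 of its 29435 peaks (44.4%, 95% exact binomial interval 43.9 to 45.0%) met none of the 5 peak lists made in S16, a rat Schwann cell line. These 13082 sites were chosen by overlap: a site was left out if it shared 1 bp or more with a peak of acetylated histone H3 lysine 27 (H3K27ac), NR2F2, YY1, RXRG or TEAD1. The nerve came from wild type rats at postnatal day 15, and the label gives Schwann as the cell type of the tissue. S16 cells carried no treatment. H3K27ac was mapped in them by ChIP-seq and the 4 factors by CUT&RUN, in which a nuclease tethered to an antibody releases the bound DNA. With a single library per target (n = 1), no difference below has a replicate check and none was tested. Binomial intervals cover counting error only, and neighbouring peaks are not independent. The 2 sources also differ in tissue against cell line, in age against culture and, for the factors, in assay. The contribution of each to whether a nerve peak met an S16 peak cannot be told apart. The input library of the nerve was not analysed here.

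SREBP1 is a transcription factor of the sterol regulatory element binding protein family. It is made as a membrane protein of the endoplasmic reticulum, is cut in the Golgi, and its released amino-terminal part enters the nucleus and switches on genes of fatty acid and lipid synthesis. Myelinating Schwann cells, the glia of peripheral nerve, make large amounts of lipid for the myelin sheath in the weeks after birth. H3K27ac marks active promoters and enhancers, YY1 is a zinc finger protein found at many promoters and enhancers, TEAD1 binds DNA for the coactivators YAP and TAZ, and NR2F2 and RXRG are nuclear receptors. Sites are named by position on build rn5, counted from 1, because no gene annotation or sequence of that build was used here.

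The 13082 sites covered 6.34 Mb. Every SREBP1 peak was 485 bp wide, so that no difference among SREBP1 peaks below is one of width. Of the remaining SREBP1 peaks, 15103 (51.3%) lay in H3K27ac, and 1250 (4.25%) lay outside H3K27ac but met a factor. Over all SREBP1 peaks, in H3K27ac or not, 57.7% met none of the factors. Outside the acetylated chromatin of S16 that share was higher, 91.3% of 14332. Among the 1250 peaks there that met a factor, 769 met YY1, 650 TEAD1, 175 NR2F2 and 170 RXRG. The H3K27ac list decided the most memberships, since 3890 SREBP1 peaks met that list alone, against 383 for YY1, 290 for TEAD1, 120 for RXRG and 45 for NR2F2.

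Peaks lay close to the border of the set on both sides, and 2566 of the sites (19.6%) lay within 500 bp of an S16 peak. Within 50 bp of an S16 peak lay 428 of the 13082 sites, 294 of them within 50 bp of H3K27ac. On the other side, 502 SREBP1 peaks overlapped S16 peaks by 50 bp or less at most. The sites nearest to H3K27ac were directly adjacent to it (distance 1 bp), at chr1:259146637-259147121, chr3:8783539-8784023, chr3:131704732-131705216, chr5:26492094-26492578 and chr5:79676990-79677474. The SREBP1 peaks left out by the smallest overlap, 1 bp, were at chr1:221039672-221040156 with YY1, chr3:156307420-156307904 with TEAD1, and chr3:66933384-66933868, chr6:61299749-61300233 and chr6:102718976-102719460 with H3K27ac. Outside the set, 50.6% of the SREBP1 peaks lay wholly inside a single S16 peak.

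The name of each SREBP1 peak ends in a number that restarts at 1 on each chromosome, and the rule made no use of it. No source used here says what the number counts or ranks, and the deposited score is 1 in every peak. Sites that met no S16 list carried high numbers. Ranked within its chromosome from the lowest number (percentile 0) to the highest (percentile 100), the median site stood at percentile 67.2, with the lower and upper quartiles at 46.8 and 84.3. The median was 32.1 for SREBP1 peaks in H3K27ac and 46.0 for those that met a factor outside H3K27ac. Close to the border of the set the contrast was small. The median percentile was 51.9 for sites within 50 bp of it and 50.8 for SREBP1 peaks overlapping S16 peaks by 50 bp or less. The 25% of each chromosome's peaks with the lowest numbers held 851 of the sites (6.51%), and the 25% with the highest numbers held 5102 (39.0%).

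Over all chromosomes together, the share climbed at each step of the numbering. Each chromosome's peaks were divided into 10 equal classes by rising number. In the lowest class 4.08% of SREBP1 peaks met no S16 list, followed by 12.6, 26.7, 36.9, 46.9, 52.7, 59.1, 65.3 and 67.7% and, in the highest class, 72.5%. The share in H3K27ac went the other way, with 93.1% in the lowest class and 24.4% in the highest. It holds most of the remaining peaks in each class, so its fall is not a separate observation. SREBP1 peaks with a factor outside H3K27ac had no such course, and their share stayed between 2.82 and 5.67%. Among SREBP1 peaks outside H3K27ac, the share without any factor went from 59.1% in the lowest class to 96.0% in the highest.

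**Figure D1:**
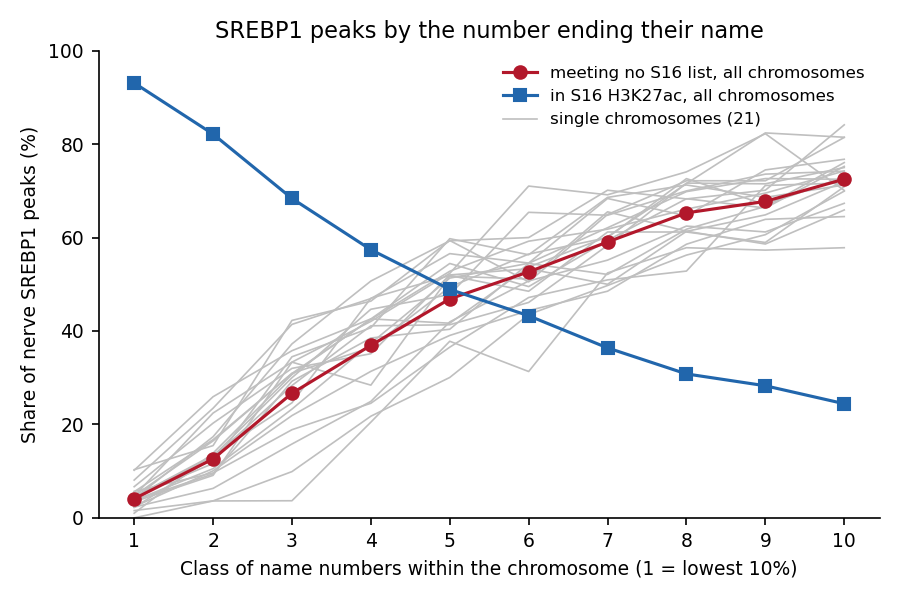
Share of nerve SREBP1 peaks (%) in 10 equal classes of the name numbers, ranked within the chromosome from the lowest numbers (1) to the highest (10). Red points are peaks meeting no S16 list, blue squares those in S16 H3K27ac, and grey lines the peaks meeting no S16 list on each of 21 chromosomes. The red line climbs from 4.08 to 72.5% and the blue line falls from 93.1 to 24.4%.

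On each of 21 chromosomes the median percentile of the sites was above that of SREBP1 peaks in H3K27ac. The median percentile of the peaks with a factor outside H3K27ac lay between them on every chromosome but 12, where it was 32.3, below the H3K27ac peaks. The rise from class to class held for all chromosomes together and not at every step on each of them. The median percentile of the sites ranged from 63.9 on chromosome 15 to 72.2 on chromosome 10. For SREBP1 peaks in H3K27ac it ranged from 28.5 on chromosome 6 to 36.3 on chromosome 12. The difference between them was smallest on chromosome 20 (29.8 percentile points) and largest on chromosome 10 (37.9). Chromosome 12 had the lowest share of such sites among both the highest 25% of the numbers (58.7%) and the lowest 25% (1.94%), and chromosome 17 the highest share in both (80.1% and 21.5%).

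The numbers had an internal order. When the SREBP1 peaks of a chromosome were read by rising number, their positions ran up the chromosome in blocks, each beginning at a lower position than the one before had ended. Between 90.9 and 96.3% of steps went up in position, and a chromosome had 48 to 132 such blocks. Blocks lengthened with the number: the first held between 1 and 4 peaks and the last between 80 on chromosome X and 411 on chromosome 1. The block number, counted from the end, therefore gave a grading with no threshold of its own. Of the 3825 peaks in the last blocks of the 21 chromosomes, 72.6% met no S16 list. The share was 66.5% in the block before, then 63.8, 59.0, 53.2 and 51.9%, and 37.7% in block 10 from the end. In the last block it ranged from 57.8% on chromosome 12 to 81.7% on chromosome 17.

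**Figure D2:**
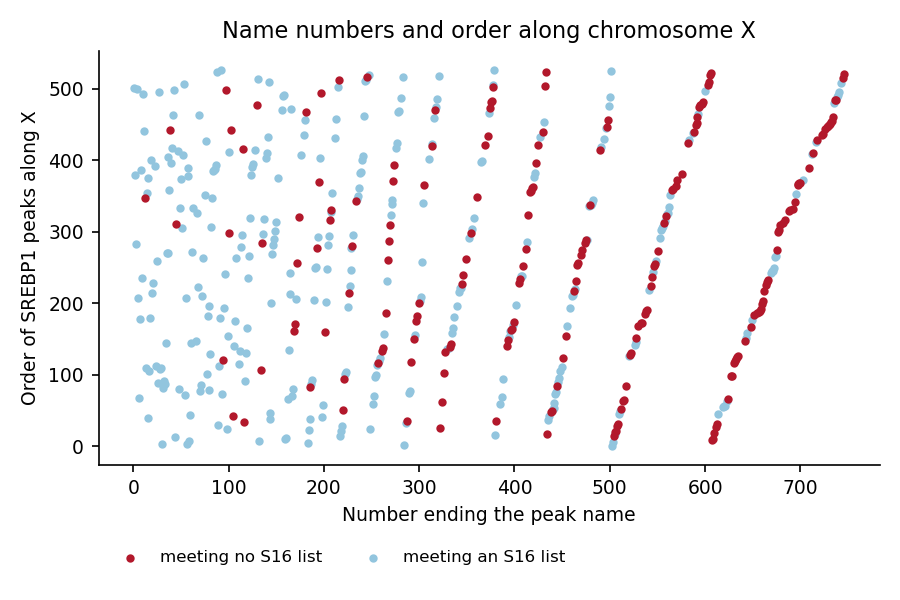
Order along chromosome X (1 is the first of the chromosome's 527 SREBP1 peaks) against the number ending the peak name. Red points are peaks meeting no S16 list and blue points those meeting one. From numbers near 200 upward the points form rising lines, of which the last starts at 607 and holds 80 peaks, and red points become more frequent to the right.

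Numbers were missing from the deposited list, and more often where they were high. The numbers reached 6114 on chromosome 1, which held 3485 peaks, and between 54.5 and 70.6% of the numbers up to a chromosome's highest were present. In the lowest 10% of the number range 92.6% were present, and in the highest 10% 42.7%. The part played by the absent numbers in the shares above was not tested.

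Few sites stood at the very start of the numbering. Among the numbers 1 to 10 of all chromosomes, 1 of 207 peaks met no S16 list. Among the numbers 1 to 100 it was 81 of 2052 (3.95%, 95% exact binomial interval 3.15 to 4.88%), with 13 of them on chromosome 20 and none on chromosomes 1, 3, 4 and 10. The lowest-numbered site was number 1 of chromosome 6, at chr6:9385826-9386310, which lay 4476 bp from the nearest H3K27ac peak and 4388 bp from the nearest TEAD1 peak. Next came number 11 of chromosome 17 at chr17:9221550-9222034, 951 bp from H3K27ac. Number 12 recurred on 3 chromosomes. At chr2:71376355-71376839 it lay 2036 bp from H3K27ac and 1110 bp from an RXRG peak. At chr19:63844239-63844723 it lay 1743 bp from H3K27ac and 185 bp from an NR2F2 peak. At chrX:106471834-106472318 it lay 14769 bp from H3K27ac and 2821 bp from an RXRG peak.

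Most of the sites lay within 10 kb of an H3K27ac peak. The median distance to the nearest H3K27ac peak, from edge to edge, was 5754 bp, with quartiles of 1208 and 18941 bp. Within 500 bp lay 2165 sites (16.5%), within 10 kb 8094 (61.9%), and beyond 50 kb 1294 (9.89%), of which 84 lay beyond 200 kb. SREBP1 peaks that met a factor outside H3K27ac lay closer, at a median of 497.5 bp, with 84.96% within 10 kb and 3.04% beyond 50 kb. The median of the sites was the greater on 21 of 21 chromosomes. The rule sets the lower end of both distances, so that they are given as a description.

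Compared with the RXRG and NR2F2 peaks of S16 that likewise met no other list, the nerve sites lay closer to acetylation. YY1 and TEAD1 peaks of that kind were not measured. The median distance to H3K27ac was 5754 bp for the nerve sites, 6945 bp for the 22992 such RXRG peaks on placed chromosomes and 9518 bp for the 11532 such NR2F2 peaks. Within 500 bp of H3K27ac lay 16.5% of the nerve sites, against 5.86% of the RXRG and 5.34% of the NR2F2 peaks. Peaks of these lists differ in width and threshold, whose part in the difference was not tested.

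**Figure D3:**
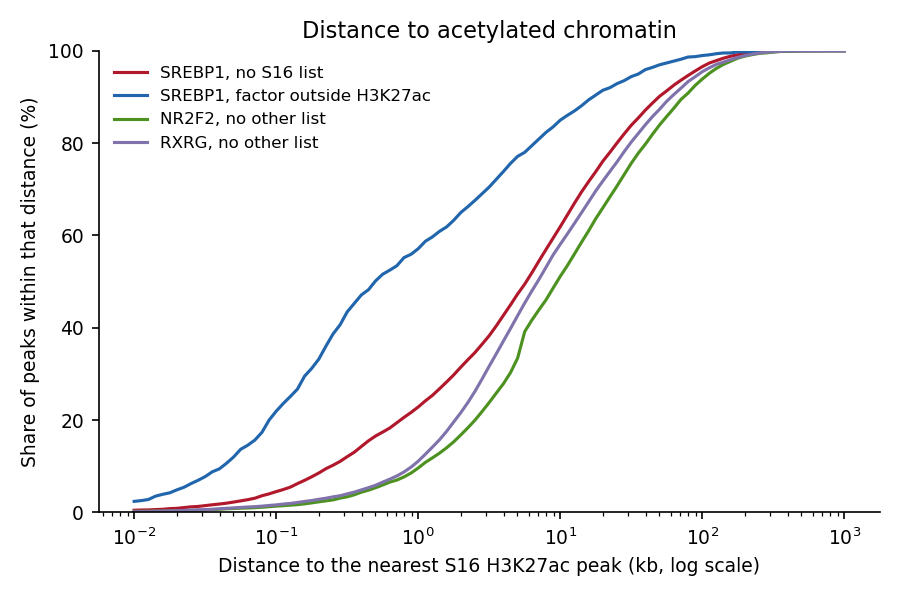
Cumulative share of peaks (%) against the distance to the nearest S16 H3K27ac peak (kb, log scale). SREBP1 peaks meeting no S16 list (red) reach 61.9% at 10 kb, those with a factor outside H3K27ac (blue) 84.96%, and NR2F2 (green) and RXRG (violet) peaks meeting no other list 51.1 and 58.1%.

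Distance and name number went together. With the numbers of each chromosome in 4 equal classes, the 851 sites of the lowest class lay at a median of 1982 bp from H3K27ac, and the medians of the next classes were 4072.5, 5943 and 7332 bp. The share within 500 bp was 29.8% in the lowest class and 11.6% in the highest, and the share beyond 50 kb was 6.70% in the lowest and 11.03% in the highest. SREBP1 peaks with a factor outside H3K27ac had medians of 206, 338, 1212 and 1939.5 bp in the same classes, below the sites in each.

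Other S16 lists lay farther off. The median distance was 16532.5 bp to RXRG, 19853 bp to YY1, 23183 bp to NR2F2 and 30887 bp to TEAD1, lists that hold fewer peaks than the 99516 of H3K27ac. The nearest S16 peak of any list was at a median of 3684 bp, and 72.4% of the sites had one within 10 kb. H3K27ac was the nearest list for 8080 sites (61.8%), RXRG for 2324 (17.8%), NR2F2 for 1337 (10.2%), YY1 for 749 (5.73%) and TEAD1 for 571 (4.36%), with ties at 21. Beyond 50 kb of every S16 list lay 482 sites (3.68%).

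The sites sat in wide intervals of the acetylated landscape. The H3K27ac peaks on either side of a site were separated by a median of 33884 bp. That interval was 14434.5 bp for the SREBP1 peaks with a factor outside H3K27ac, and the median over all 99329 intervals between H3K27ac peaks was 9056 bp, although wide intervals have more room for any peak. With H3K27ac peaks joined where they lay no more than 10 kb apart, 2545 of the sites (19.5%) fell within a joined region, against 39.0% of the peaks with a factor.

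The farthest site from acetylation was at chr5:70159716-70160200, 739235 bp from the nearest H3K27ac peak and 279265 bp from the nearest peak of any S16 list, an NR2F2 peak. At chr11:63591456-63591940 the distance to H3K27ac was 650809 bp, but an RXRG peak lay at 490 bp. At chr10:21374739-21375223 it was 620767 bp, and the nearest NR2F2 peak was at 150655 bp. At chr6:24308834-24309318 it was 500707 bp, with an RXRG peak at 605 bp. At chr13:35619491-35619975 it was 492739 bp, with an RXRG peak at 20754 bp. Remote sites were thus not all remote from every factor. All 5 stood above the middle of their chromosome's numbers, at percentiles from 52.7 to 91.6. So did most of the 13082 sites, whose median percentile was 67.2.

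Most sites that met no S16 list, 11236 (85.9%), had no other such site within 10 kb. The median distance of a site to the next such site was 39642 bp between midpoints. Another lay within 10 kb of 1846 sites (14.1%, 95% exact binomial interval 13.5 to 14.7%). Whether this spacing departs from that of random positions was not tested. The other SREBP1 peaks, which are more numerous, lay closer to each other, with a median of 24902 bp and 20.5% within 10 kb. No other SREBP1 peak of either kind lay within 50 kb of 2764 sites (21.1%), against 14.2% of the other SREBP1 peaks. Sites with and without a companion within 10 kb differed little, with median percentiles of 64.0 and 67.6 and median distances to H3K27ac of 6101.5 and 5697.5 bp.

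Neighbours along the chromosome were often of like kind. For a site that met no S16 list, 53.6% of the adjacent SREBP1 peaks met none either. For the other SREBP1 peaks 37.2% of the adjacent peaks met none, and over all pairs of adjacent peaks the share was 44.5%. The order was the same on 21 of 21 chromosomes, with a difference from 8.22 percentage points on chromosome 16 to 23.9 on chromosome 19. It was present at each spacing: for adjacent peaks up to 10 kb apart the shares were 52.5% beside a site and 32.9% beside another SREBP1 peak, and for those over 200 kb apart 63.4 and 49.4%. The same S16 lists classed both peaks of each pair, and the share meeting none differed by region. It was 88.0% in 1 Mb windows with 1 to 5 H3K27ac peaks and 34.1% in those with 61 to 120. The part of such regions in the likeness of neighbours was not tested.

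**Figure D4:**
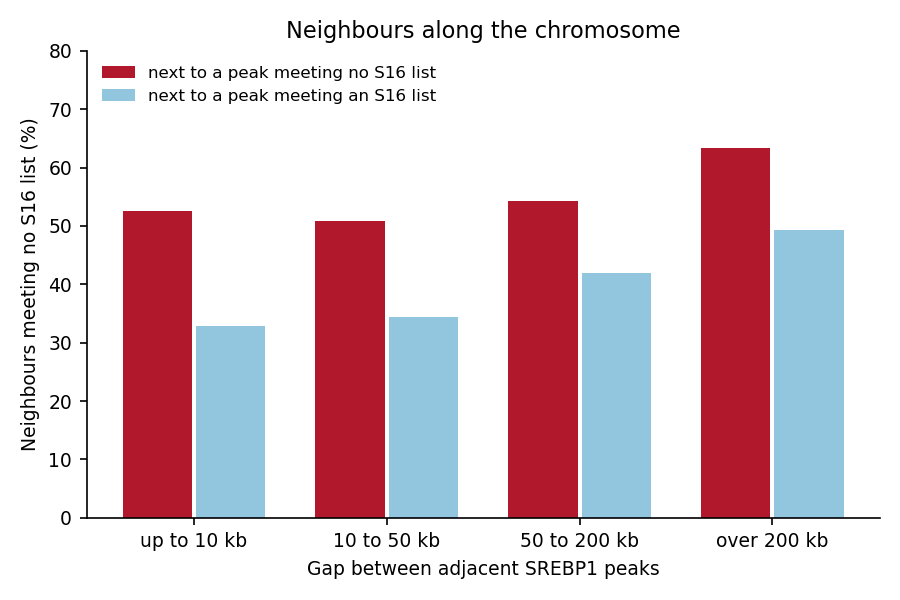
Share of adjacent SREBP1 peaks that met no S16 list (%), by the gap between the adjacent peaks, for neighbours of a peak meeting no S16 list (red) and of a peak meeting one (blue). Red bars are higher at each of the 4 gaps, from 52.5 against 32.9% at up to 10 kb to 63.4 against 49.4% over 200 kb.

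Unbroken runs of such sites, with no other SREBP1 peak between them, were mostly short. There were 6079 runs with a median of 1 site, and 95 runs of 10 or more held 1187 sites (9.07%). The longest had 23 sites over 3.25 Mb at chr6:66458207-69712045, where 34 H3K27ac peaks lay in the same span. A run of 20 sites was packed into 0.622 Mb at chr8:54292335-54913966, with 4 H3K27ac peaks. Another run of 20 extended over 2.03 Mb at chr8:82072798-84104537.

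Tight groups were mostly pairs. Joining sites whose neighbours lay within 10 kb gave 882 groups of 2 or more, of which 811 were pairs, 61 had 3 sites, 9 had 4 and 1 had 5. The group of 5 was at chr11:20766815-20784364, a span of 17550 bp, between 105070 and 113533 bp from H3K27ac although another S16 list came within 250 bp. Its sites had the numbers 328, 392, 393, 394 and 395, the last 4 of them consecutive. Such consecutive numbers occurred in 127 of the 964 adjacent pairs within 10 kb (13.2%). Nearly the same number of these pairs, 129 (13.4%), lay in the same block of ascending position, within which numbers rise along the chromosome. The share of consecutive numbers among all adjacent SREBP1 peaks is not given here, so it cannot be called a trait of these sites.

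The groups of 4 with the shortest spans differed in their surroundings. The group at chr9:89240919-89256595 lay 30229 to 45421 bp from H3K27ac and had numbers between 1033 and 2154. The group at chr11:37897390-37913906 lay 385 to 6429 bp from it and joined number 39, one of the lowest among all sites, to numbers up to 1083. The group at chr15:111456160-111473573 lay 1751 to 3740 bp from H3K27ac. The group at chr3:161058771-161078242 lay within 1717 bp of it at every site, and at 53 bp at the nearest.

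The density of the sites differed between autosomes, by an amount that depended on the length used. With length measured from the first to the last peak of any list, it was lowest on chromosome 4 at 3.25 per Mb and highest on chromosome 10 at 5.97, a ratio of 1.84. On the autosomes that length includes 13 stretches of over 1 Mb (141 Mb in all) that held no peak of any list. Chromosome 4 held the longest, 65.2 Mb, which was not analysed here. Without these stretches the sites numbered 4.94 per Mb over the 20 autosomes, from 4.13 on chromosome 13, 4.21 on chromosome 2 and 4.398 on chromosome 16 to 6.05 on chromosome 20, 6.07 on chromosome 17 and 6.09 on chromosome 19. The highest was then 1.47 times the lowest. Chromosome X, also without its empty stretch of 1.08 Mb, had 1.34 sites per Mb, below every autosome.

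On the same lengths the other SREBP1 peaks ranged from 4.34 per Mb on chromosome 15 to 11.2 on chromosome 10, a ratio of 2.59. The coefficient of variation over the 20 autosomes was 12.97% for the sites, 30.5% for the other SREBP1 peaks and 24.3% for H3K27ac peaks, and it was 12.6% for the share of SREBP1 peaks that met no S16 list. This share was lowest on chromosomes 12 (32.2%), 10 (34.7%) and 7 (38.5%) and highest on chromosomes 14 (52.1%), 6 (52.1%) and 15 (51.5%). It was 38.9% on chromosome X.

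Among the autosomes, that share was lower where H3K27ac peaks were denser, whereas the density of the sites showed little relation to them. Chromosome X went against this order, with the fewest H3K27ac peaks per Mb (14.7), a share of 38.9% and the lowest density of sites. On the 5 autosomes with the most H3K27ac peaks per Mb (7, 9, 10, 12 and 19; 46.4 to 57.6 per Mb) the share was 32.2 to 44.2%, and on the 5 with the fewest (5, 6, 14, 17 and 18; 25.5 to 30.1 per Mb) it was 45.8 to 52.1%. The density of the sites was 4.53 to 6.09 per Mb on the most acetylated autosomes and 4.86 to 6.07 on the least acetylated, ranges that overlap almost wholly. Over 20 autosomes, Pearson's r with H3K27ac peaks per Mb was -0.91 for the share (Spearman's rho -0.93) and 0.15 for the density (rho 0.051). It was 0.85 for the density of the other SREBP1 peaks (rho 0.76). These are descriptions of 1 pair of libraries: the same H3K27ac list chose the sites and set the densities.

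**Figure D5:**
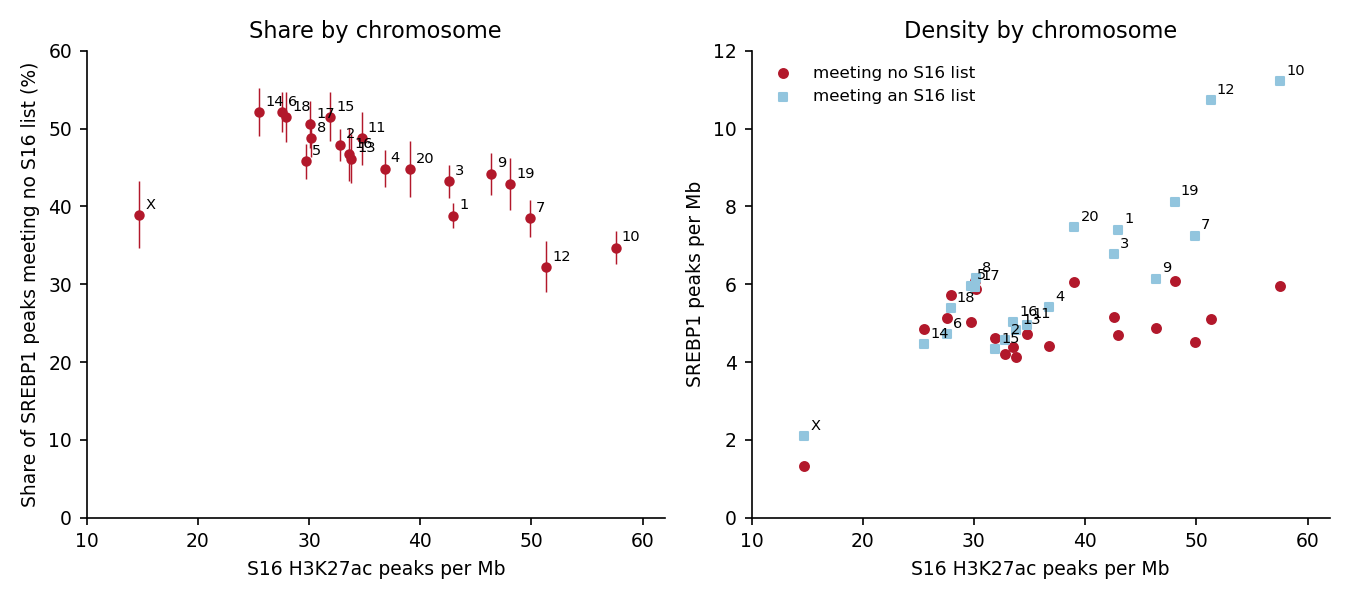
Left, share of SREBP1 peaks meeting no S16 list (%, bars are 95% exact binomial intervals) and, right, peaks per Mb meeting no S16 list (red points) and meeting one (blue squares), both against S16 H3K27ac peaks per Mb, with chromosomes numbered. Among the autosomes the share falls from 52.1% on chromosome 14 to 32.2% on chromosome 12 and the red points stay between 4.13 and 6.09 per Mb, while chromosome X, at 14.7 H3K27ac peaks per Mb, has a share of 38.9% and 1.34 such peaks per Mb.

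Windows of 1 Mb gave the share in the same order. They were graded by the same H3K27ac list that chose the sites. A lower share in acetylated windows thus follows in part from the rule. Of 2785 windows that held a peak of any list, 2282 (81.9%) had at least 1 such site. Windows with 1 to 5 H3K27ac peaks had on average 1.46 sites and 0.199 other SREBP1 peaks, and those with 61 to 120 had 7.54 sites and 14.6 others. Sites were thus more numerous in acetylated windows, a relation that the densities of whole autosomes did not show. Their share of SREBP1 peaks, however, was 88.0% in the first kind of window and 34.1% in the second. In the 16 windows with over 120 H3K27ac peaks the sites averaged 6.50 and made up 22.5% of SREBP1 peaks. The fullest windows held 23 sites at chr6:115000001-116000000 (58 H3K27ac peaks), 22 at chr6:103000001-104000000 (19) and 21 each at chr2:75000001-76000000 (12) and chr8:54000001-55000000 (21).

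Local acetylation and name number each went with the share when the other was held within a class. For acetylation this is partly built in, as the same H3K27ac list graded the windows, chose the sites and set the distances. In windows with up to 15 H3K27ac peaks, 23.4% of SREBP1 peaks in the lowest 25% of the numbers met no S16 list, and 89.0% in the highest 25%. In windows with over 60 H3K27ac peaks the shares were 7.82 and 58.1%. The median distance of the sites to H3K27ac went with both as well, from 870 bp at low numbers in the most acetylated windows to 33510 bp at high numbers in the least acetylated.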

How the data were processed

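The 6 deposited peak lists, of 1 library each, hold positions on build rn5. Per the file headers, the SREBP1 list also holds a name and a score; the authors' deposited score has a single value and was not used. Bowtie2, MACS2, bedtools, deepTools and bcl2fastq 2.20.0.422 are listed, without roles or settings, per the submitters' processing notes. Read depth is unknown, and the thresholds and controls of the peak calls were not given in the sources used here. Overlap (1 bp or more), edge-to-edge distance and spacing of midpoints were computed in Python 3.11.15 with NumPy 2.4.6, SciPy 1.17.1 and pandas 2.3.3, and tested on simulated data. Figures were drawn with Matplotlib 3.10.9. Name numbers were ranked within chromosomes. The members and measures were chosen with earlier results of these data known. Named sites are the 5 with the lowest numbers, the 5 farthest from and nearest to H3K27ac, the 5 largest groups and the 5 smallest overlaps; blocks, runs and windows were added after the data were seen. No test was made, since a test over peaks would treat those of 1 library as replicates.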

Additional observations from a re-analysis of the deposited data

How the results depend on the processing

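Of 46 alternatives to 5 values, 10 stayed within the 95% binomial interval of the value reported, an interval of counting error that is narrow with 13082 peaks. The share meeting no S16 list (44.4%) was 53.1% when 50% of the shorter peak had to overlap, 55.4% by the midpoint, 35.7% and 27.5% with S16 peaks extended by 500 and 2000 bp, 35.8% with stitched H3K27ac, and 57.7%, 45.7% and 45.4% without the H3K27ac, YY1 and TEAD1 lists. Under the same 4 overlap settings the median percentile of the name number (67.2) was 64.1, 63.6, 69.4 and 70.3, the median distance to H3K27ac (5754 bp) was 3635, 3324, 8569.5 and 12215.5 bp, and the share with another site within 10 kb (14.1%) was 16.4, 17.0, 12.3 and 10.7%. By construction, extension removes the sites nearest to S16 peaks. The percentile was 58.7 as a share of the highest number and 66.2 as a median over chromosomes. The distance was 6457 bp between midpoints and 13862 bp to H3K27ac peaks wider than their median. Windows of 5 and 50 kb gave 3.77 and 57.2%. The ratio of autosome densities (1.84) was 2.15 with extension by 2000 bp, 1.47 without empty stretches and 1.62 for the share. The 4 classes of the numbers, added after seeing the data, gave shares of 11.6, 39.3, 57.6 and 69.3%, and distances of 1982, 4072.5 and 7332 bp in the first, second and last. Placed chromosomes changed nothing, as the SREBP1 list holds no others. No paired analysis was possible because there is a single sample per group.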
